A study of Mus musculus with 6 samples.

Results

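Transcripts of 48 mouse genes that build and drive the mitotic apparatus were followed in activated CD8+ T cells given trans-vaccenic acid (TVA), a dietary long-chain fatty acid. The genes were chosen by symbol for their roles in chromosome structure, the spindle checkpoint, mitotic kinases, the kinetochore, spindle motors, cytokinesis and chromosome separation, without a threshold on their values. All 48 were found among the 24589 genes listed, and all 48 passed the filter on low values (at least 1 TPM, a length-scaled share of all transcripts, in at least 3 libraries), as did 10866 genes in all. The cells were wild-type primary CD8+ T cells, taken from spleen and lymph nodes of C57BL/6 mice per the study's methods. After stimulation with antibodies to CD3 and CD28, which both groups received, cells were kept for 24 h in 20 µM TVA (3 libraries) or in the solvent DMSO (3 libraries). Nothing in the labels says that the 3 libraries of a group came from separate mice or cultures, and the p-values therefore measure the spread between libraries, which may be technical.

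Cells entering mitosis condense their chromosomes with topoisomerase II and condensin, attach them through kinetochores to a microtubule spindle, and hold anaphase back by a checkpoint until every kinetochore is attached. The anaphase promoting complex then marks securin and cyclin B for destruction, separase opens the cohesin rings, and a central spindle places the cleavage furrow. Most of these genes are transcribed late in the cell cycle, under the DREAM, B-MYB and FOXM1 regulators, and activated CD8+ T cells are among the fastest dividing cells of the mouse.

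The promoters of these genes are known for 2 short elements, the CCAAT box and the cell cycle homology region (CHR), and both can be seen in the stretches shown here. The 120 bases before the RefSeq start of 6 genes are given 5′ to 3′ on the gene's strand, from build GRCm38.p6, with each CCAAT and each CHR (TTTGAA) in capitals, also where it lies on the other strand as ATTGG or TTCAAA. Top2a (chr11:99024190-99024309, minus strand), Bub1 (chr2:127831860-127831979, minus strand), Mad2l1 (chr6:66535101-66535220, plus strand) and Kif11 (chr19:37376262-37376381, plus strand) are shown because their transcripts rose. Cdc20 (chr4:118437344-118437463, minus strand) and Ube2c (chr2:164769809-164769928, plus strand) are shown because their log2 changes were the lowest of the 48.
Top2a: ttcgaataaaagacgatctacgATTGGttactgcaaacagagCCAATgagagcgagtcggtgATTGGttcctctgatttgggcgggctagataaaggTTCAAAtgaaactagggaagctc
Bub1: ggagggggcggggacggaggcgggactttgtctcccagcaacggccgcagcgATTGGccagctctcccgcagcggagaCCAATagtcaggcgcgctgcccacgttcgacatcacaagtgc
Mad2l1: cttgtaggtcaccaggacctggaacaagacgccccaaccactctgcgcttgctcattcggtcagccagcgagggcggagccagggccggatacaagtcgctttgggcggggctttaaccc
Kif11: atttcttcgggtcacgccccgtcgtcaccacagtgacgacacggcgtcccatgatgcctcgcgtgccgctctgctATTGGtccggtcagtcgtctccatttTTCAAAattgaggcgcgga
Cdc20: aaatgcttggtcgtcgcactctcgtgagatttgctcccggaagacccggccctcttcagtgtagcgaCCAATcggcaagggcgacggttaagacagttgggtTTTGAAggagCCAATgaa
Ube2c: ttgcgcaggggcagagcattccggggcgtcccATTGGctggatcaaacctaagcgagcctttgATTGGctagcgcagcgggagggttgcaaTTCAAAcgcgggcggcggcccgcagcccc
Top2a, Kif11, Cdc20 and Ube2c hold both elements in these stretches, Bub1 holds CCAAT boxes only, and Mad2l1 holds neither. Of the 48 genes, 40 had a window of 250 bases before to 50 bases after the start. In those windows TTTGAA on either strand was present for 30 of 40 genes (75.0%), against 18.2% of 27025 genes with a window. CCAAT on either strand was present for 28 (70.0%, against 38.0%), and both motifs together for 25 (62.5%, against 7.2%). The E2F-type sequences GCGGGAA or TTGGCGC on either strand, the latter of which can share letters with a CCAAT box read on the other strand, were found for 7 (17.5%, against 7.0%). The genes whose transcripts rose held the CHR in 11 of 16 windows (68.8%) and the others in 19 of 24 (79.2%). A match of letters is a description of the window and not a binding site.

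In TVA, 20 of the 48 transcripts rose and none fell (limma on log2(TPM + 1), Benjamini-Hochberg adjusted p under 0.05 over all genes tested). The share of members that rose was 41.7%, beside 5.28% of all genes tested that were called higher, 3.23% called lower and 8.51% called in either direction. At an unadjusted p under 0.05 there were 33 members higher and 2 lower, beside 21.5% of all genes tested higher and 10.3% lower at that threshold. The changes were small. The median log2 change of the members was 0.15, that of all genes tested was 0.04, the members ran from -0.19 (Ube2c) to 0.35 (Mad2l1), and 0 members changed by 1.5-fold or more. In 34 members all 3 TVA libraries lay above all 3 DMSO libraries, in 1 they lay below, and in 13 the groups overlapped, while 27.3% of all genes tested had all TVA libraries above and 11.2% had them below. The count of 20 depended on single libraries. Without DMSO library 3 it was 3, and without TVA library 1, 2 or 3 it was 0, 0 and 0 by limma (29, 24 and 24 members higher at an unadjusted p under 0.05, beside 12.8% to 17.8% of all genes). The calls over all genes fell with it, to 1.32% called higher without DMSO library 3 and 0.469%, 0.35% and 0.377% without a TVA library. Over the 6 fits with 1 library left out, the median of the members stayed between 0.135 and 0.166. Since these are bulk samples, a larger share of dividing cells and more of these transcripts per dividing cell cannot be told apart.

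The summed TPM of the 48 genes was 2463, 2425 and 2463 in the DMSO libraries and 2617, 2700 and 2671 in the TVA libraries. The TVA libraries were all higher, and both groups were tight. TPM fixes the total of every library, the deposited values carry no read counts, and the depth behind each value is unknown.

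**Figure D1:**
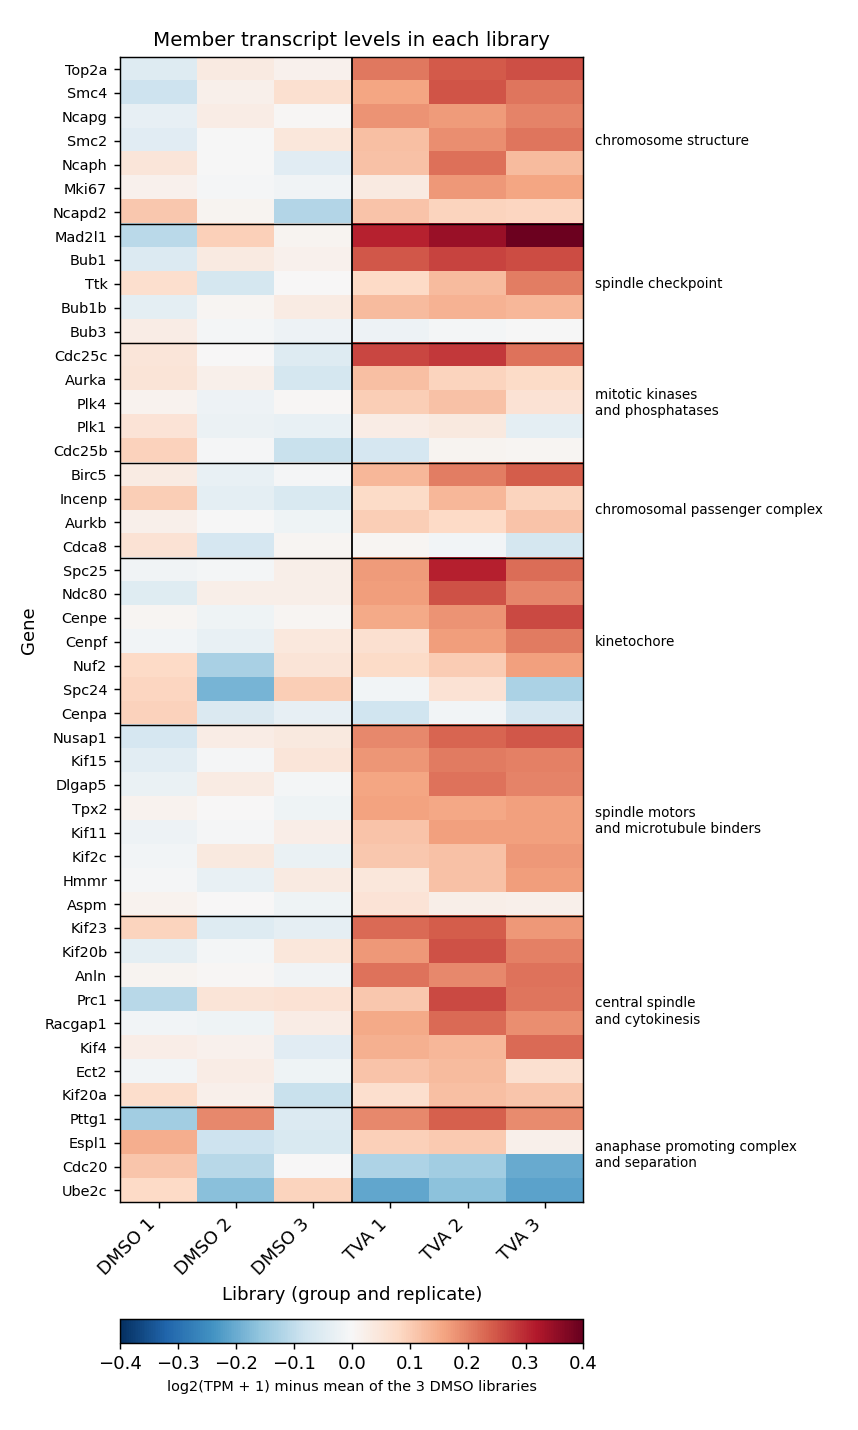
Colour gives the log2(TPM + 1) of each of the 48 genes (vertical axis, in blocks by role) in each library (horizontal axis) minus the mean of the 3 DMSO libraries. The TVA columns are mostly red, from chromosome structure down to cytokinesis, while Cdc20 and Ube2c at the foot are blue in all 3 TVA libraries.

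Among the 7 chromosome structure genes 4 rose, and the median log2 change was 0.17. Top2a, the topoisomerase that untangles sister chromatids, measured 180.78, 192.41 and 189.62 TPM in DMSO and 217.19, 222.40 and 224.31 TPM in TVA. The groups were well apart, with a log2 change of 0.24 (SE 0.0382, adjusted p = 0.0162, limma). Its call was lost with the replicate block and GC correction together (adjusted p = 0.0573, limma) and without any 1 TVA library. Smc4, a condensin ATPase and the member with the highest mean level (211.5 TPM), had 184.92, 198.77 and 205.09 TPM in DMSO and 218.91, 233.82 and 227.78 TPM in TVA. Its log2 change was 0.21 (SE 0.0488, adjusted p = 0.044, limma), with no overlap between groups. Smc2, the partner ATPase, had 62.82, 64.81 and 66.91 TPM in DMSO and 70.50, 73.89 and 75.34 TPM in TVA, a log2 change of 0.17 (SE 0.0427, adjusted p = 0.0488, limma). Ncapg, a condensin I subunit, had 37.54, 39.28 and 38.55 TPM in DMSO and 43.73, 43.38 and 44.28 TPM in TVA, a log2 change of 0.18 (SE 0.0373, adjusted p = 0.0307, limma). All TVA libraries were above all DMSO libraries for these condensin genes. With the GC correction none of them was called, with log2 changes of 0.11 for Smc4, 0.09 for Smc2 and 0.08 for Ncapg. The other condensin I subunits did not pass the test, Ncaph with a log2 change of 0.15 at 47.0 TPM in DMSO and Ncapd2 with 0.10 at 75.3 TPM.

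Mki67, which encodes the proliferation marker Ki-67 that coats mitotic chromosomes, had 53.47, 52.63 and 52.32 TPM in DMSO and 54.18, 59.71 and 59.00 TPM in TVA. The lowest TVA library lay just above the highest DMSO library. Its log2 change was 0.12 (SE 0.0462, 95% interval 0.02 to 0.23), and with an adjusted p of 0.12 by limma it was not called.

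In the spindle checkpoint 2 of 5 genes rose. Mad2l1, whose product MAD2 binds and holds CDC20 in the checkpoint complex, had the largest change of the 48, from 89.61, 103.37 and 97.36 TPM in DMSO to 119.92, 122.93 and 127.03 TPM in TVA. Every TVA library was above every DMSO library, with means 27.4% apart and a log2 change of 0.35 (SE 0.0559, adjusted p = 0.0162, limma). Bub1, a kinase that recruits checkpoint proteins to kinetochores, had 24.27, 25.92 and 25.59 TPM in DMSO and 30.19, 30.66 and 30.48 TPM in TVA, a log2 change of 0.26 (SE 0.0415, adjusted p = 0.0162, limma). The 3 TVA values of Bub1 lay within 1 TPM of each other. The remaining checkpoint genes did not pass. The log2 changes were 0.14 for Ttk, which encodes the kinase MPS1, and 0.13 for Bub1b, which encodes BUBR1. Bub3, whose product binds BUB1 and BUBR1, changed by -0.01, at 114.8 TPM in DMSO and 114.0 TPM in TVA.

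Of the 5 mitotic kinases and phosphatases 1 rose. Cdc25c, a phosphatase that activates CDK1, had 6.50, 6.27 and 6.01 TPM in DMSO and 7.74, 7.83 and 7.44 TPM in TVA, a log2 change of 0.26 (SE 0.053, adjusted p = 0.0322, limma). Its groups did not overlap, but its exons share 623 bases with Gm3550 on the other strand, and whether the counting used strand is not given in the sources used here. The kinase genes gave log2 changes of 0.10 for Aurka, which matures centrosomes, 0.09 for Plk4, which duplicates centrioles, and 0.01 for Plk1, a kinase used at nearly every mitotic step. Cdc25b, the related phosphatase, gave -0.02. None of these 4 passed the test.

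The chromosomal passenger complex corrects faulty attachments, and 1 of its 4 genes rose. Birc5, which encodes survivin, had 137.73, 131.74 and 134.10 TPM in DMSO and 147.56, 155.22 and 159.20 TPM in TVA, a log2 change of 0.19 (SE 0.0413, adjusted p = 0.0347, limma). The groups did not overlap. Aurkb, its kinase, changed by 0.10, Incenp, its scaffold, by 0.10, and Cdca8, which encodes borealin, by -0.02 on the log2 scale, and none passed. The log2 ratio of Birc5 to Cdca8 TPM was 0.795, 0.858 and 0.809 in the DMSO libraries and 0.947, 1.039 and 1.135 in the TVA libraries, so the ratio was higher in every TVA library.

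Kinetochore transcripts rose in 3 of 7 genes. Spc25, a subunit of the NDC80 complex that grips microtubules, had 40.97, 41.14 and 42.12 TPM in DMSO and 46.73, 51.62 and 48.47 TPM in TVA, a log2 change of 0.23 (SE 0.0459, adjusted p = 0.0267, limma). Ndc80 itself had 36.28, 38.18 and 38.18 TPM in DMSO and 42.25, 44.96 and 43.08 TPM in TVA, a log2 change of 0.20 (SE 0.0427, adjusted p = 0.0328, limma). Both were higher in every TVA library, and the other 2 subunits were not called, Nuf2 with a log2 change of 0.11 and Spc24 with -0.03. Cenpe, a kinesin that carries chromosomes to the spindle equator, had 15.65, 15.36 and 15.63 TPM in DMSO and 17.39, 17.73 and 18.88 TPM in TVA, a log2 change of 0.20 (SE 0.0464, adjusted p = 0.0439, limma). Cenpf, a large protein of the outer kinetochore, changed by 0.15, and Cenpa, the histone variant that marks centromeres, by -0.05, neither past the test.

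Of the 8 spindle motors and microtubule binders 5 rose, and for all 8 the lowest TVA library lay above the highest DMSO library. Nusap1, which bundles microtubules near chromosomes, had 36.32, 38.95 and 39.19 TPM in DMSO and 43.75, 45.01 and 45.52 TPM in TVA, a log2 change of 0.23 (SE 0.0439, adjusted p = 0.0265, limma). Kif15, a kinesin that helps keep the spindle bipolar, had 29.04, 29.88 and 31.00 TPM in DMSO and 34.01, 34.77 and 34.58 TPM in TVA, a log2 change of 0.20 (SE 0.0407, adjusted p = 0.0326, limma). Within each of these genes the TVA libraries were close together. Dlgap5, which stabilises kinetochore fibres, had 27.28, 28.49 and 27.66 TPM in DMSO and 31.13, 32.51 and 32.05 TPM in TVA, a log2 change of 0.19 (SE 0.04, adjusted p = 0.033, limma). Tpx2, which activates Aurora A on the spindle, had 35.88, 35.55 and 35.09 TPM in DMSO and 39.80, 39.62 and 39.88 TPM in TVA, a log2 change of 0.16 (SE 0.0353, adjusted p = 0.0377, limma). Kif11, the kinesin that pushes spindle poles apart, was nearest the threshold, with 56.63, 57.27 and 58.63 TPM in DMSO and 62.35, 64.52 and 64.61 TPM in TVA, a log2 change of 0.15 (SE 0.0366, adjusted p = 0.0491, limma). The 3 that were not called were Kif2c, a microtubule depolymerase (log2 change 0.13), Hmmr, a spindle assembly factor (0.11), and Aspm, which focuses spindle poles (0.03).

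**Figure D2:**
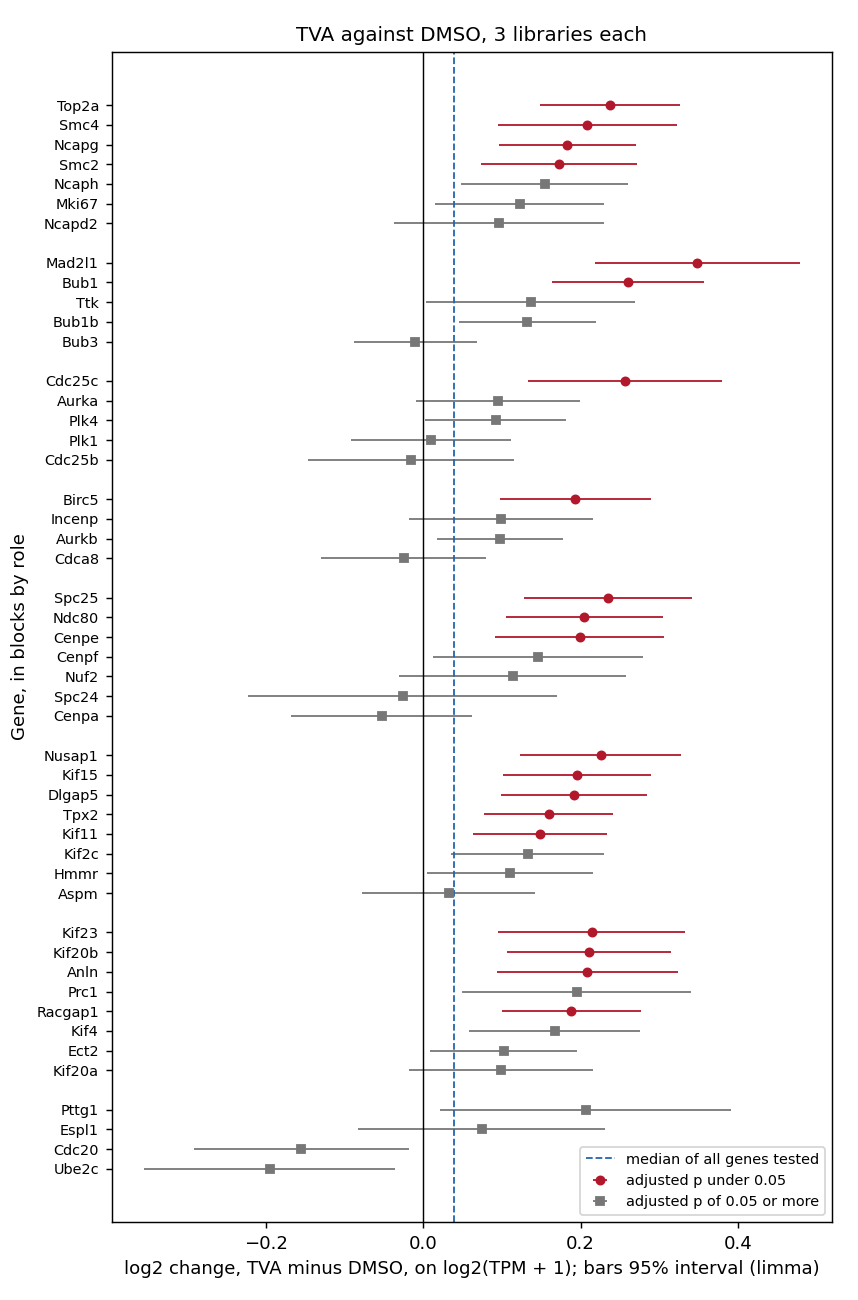
Points give the log2 change (TVA minus DMSO, on log2(TPM + 1)) of each gene, bars its 95% interval from limma, red circles an adjusted p under 0.05 and grey squares the rest, and the dashed line is the median of all genes tested, 0.04. The 20 red points lie between 0.15 (Kif11) and 0.35 (Mad2l1), and Cdc20 and Ube2c stand to the left of 0.

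Central spindle and cytokinesis genes rose in 4 of 8 cases, with a median log2 change of 0.19. Racgap1, which forms centralspindlin with the kinesin encoded by Kif23, had 59.20, 58.91 and 60.92 TPM in DMSO and 66.36, 70.04 and 68.01 TPM in TVA, a log2 change of 0.19 (SE 0.0381, adjusted p = 0.0303, limma). Kif23 had 22.64, 20.44 and 20.66 TPM in DMSO and 24.98, 25.29 and 24.09 TPM in TVA, a log2 change of 0.21 (SE 0.0512, adjusted p = 0.0458, limma). The centralspindlin partners therefore had changes of like size, and the mean log2 ratio of Kif23 to Racgap1 was -1.49 in DMSO and -1.46 in TVA. Kif20b, a kinesin of late cytokinesis, had 19.11, 19.53 and 20.30 TPM in DMSO and 22.30, 23.62 and 22.76 TPM in TVA, a log2 change of 0.21 (SE 0.0446, adjusted p = 0.0338, limma). Anln, the anillin scaffold of the contractile ring and the member with the lowest mean level (5.86 TPM), had 5.41, 5.38 and 5.30 TPM in DMSO and 6.40, 6.27 and 6.39 TPM in TVA, a log2 change of 0.21 (SE 0.0494, adjusted p = 0.0445, limma). No TVA library of these genes overlapped a DMSO library. The 4 not called were Prc1, which bundles the central spindle (log2 change 0.20), Kif4, its motor partner (0.17), Ect2, which activates RhoA at the furrow (0.10), and Kif20a, a central spindle kinesin (0.10). Exons of Prc1, Kif4 and Kif20a overlap those of Rccd1, Pdzd11 and Cdc23 on the other strand by 911, 832 and 1271 bases. Such overlaps on the other strand also touch Ncapg (944 bases with Lcorl), Ube2c (592 with Tnnc2), Cdca8 (232 with 9930104L06Rik), Nusap1 (172 with Oip5), Plk1 (156 with Gm44985), Cdc25b (92 with Spef1) and Cdc20 (53 with Elovl1), and reads of the partners could not be told apart if strand was not used.

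The anaphase promoting complex and separation genes were mixed in direction, and none of the 4 passed the test (limma, with 1 higher and 2 lower at an unadjusted p under 0.05). Ube2c, the ubiquitin conjugating enzyme of the complex, had 191.30, 161.28 and 192.48 TPM in DMSO and 156.74, 161.41 and 156.15 TPM in TVA. The DMSO libraries were spread, and DMSO library 2 lay below TVA library 2. The log2 change was -0.19, with a 95% interval of -0.35 to -0.04. Cdc20, the activator of the complex that MAD2 holds, had 91.75, 78.50 and 85.04 TPM in DMSO and 77.81, 77.01 and 73.80 TPM in TVA, with all TVA libraries below all DMSO libraries. Its log2 change was -0.15, with a 95% interval of -0.29 to -0.02. Leaving out DMSO library 2 turned both into calls, with adjusted p-values by limma of 0.00334 for Ube2c and 0.024 for Cdc20. In that fit 9.38% of all genes were called lower. No other alternative called either gene, and their highest adjusted p-values by limma were 0.27 for Ube2c and 0.332 for Cdc20. Pttg1, which encodes securin, changed by 0.21 at 46.9 TPM in DMSO and 54.0 TPM in TVA, and its groups overlapped. It was called only without DMSO library 2 (adjusted p = 0.0058, limma), where 11.3% of all genes were called higher. Espl1, which encodes separase, changed by 0.07. The difference of this group from the other roles was not tested.

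The changes went with base composition. The median GC content of a gene's transcripts and its log2 change had a Spearman rho of -0.62 over the 48 members and of -0.40 over 10588 genes, a description across genes, which share the same 6 libraries. Under 45% GC, 13 of 18 members rose and their median log2 change was 0.20, beside 8.71% of all genes in that range called higher. From 45% to 50% GC, 6 of 16 members rose, beside 7.56%. At 50% GC or more, 1 of 14 rose (Racgap1), with a median of 0.04, beside 2.76%. Cdc20 and Ube2c lie in this last range, at 54.2% and 53.4%. After the trend with GC was removed from each library, 11 members were called higher, of which 10 were among the 20 (Top2a, Bub1, Mad2l1, Cdc25c, Birc5, Ndc80, Spc25, Nusap1, Dlgap5 and Racgap1), and Incenp was the addition. The share of all genes called higher was 5.43% after the correction and 5.28% before it. The median of the members was then 0.11 and that of all genes 0.02.

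**Figure D3:**
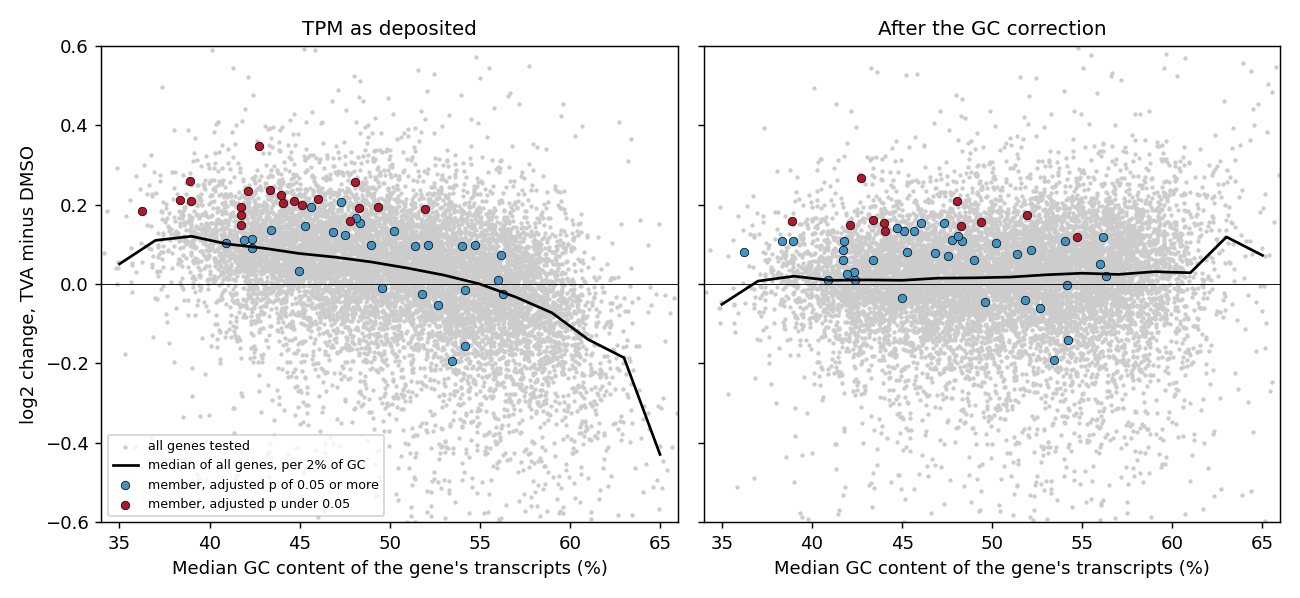
Each point is a gene, with the median GC content of its transcripts in percent on the horizontal axis and its log2 change (TVA minus DMSO) on the vertical axis, before (left) and after (right) the GC correction; grey points are all genes tested, blue and red points the members, and the line the median of all genes per 2% of GC. The line falls with GC on the left and is near 0 on the right except at its ends, and the members mostly lie above it in both panels.

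The scaling also moved the counts. Median-of-ratios scaling gave 7 members called higher and quantile normalization 8. Over all genes these scalings called 2.69% and 3.29% higher and 4.25% and 3.85% lower, against 5.28% and 3.23% with the TPM as deposited. They came with member medians of 0.119 and 0.133 and medians of all genes of 0.01 and 0.03. With the TPM as deposited, 41 members and 61.5% of all genes tested had a positive log2 change. In both scalings 40 members kept a positive log2 change. Plk1 alone among the members turned sign there, to -0.0193 and -0.0119.

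**Figure D4:**
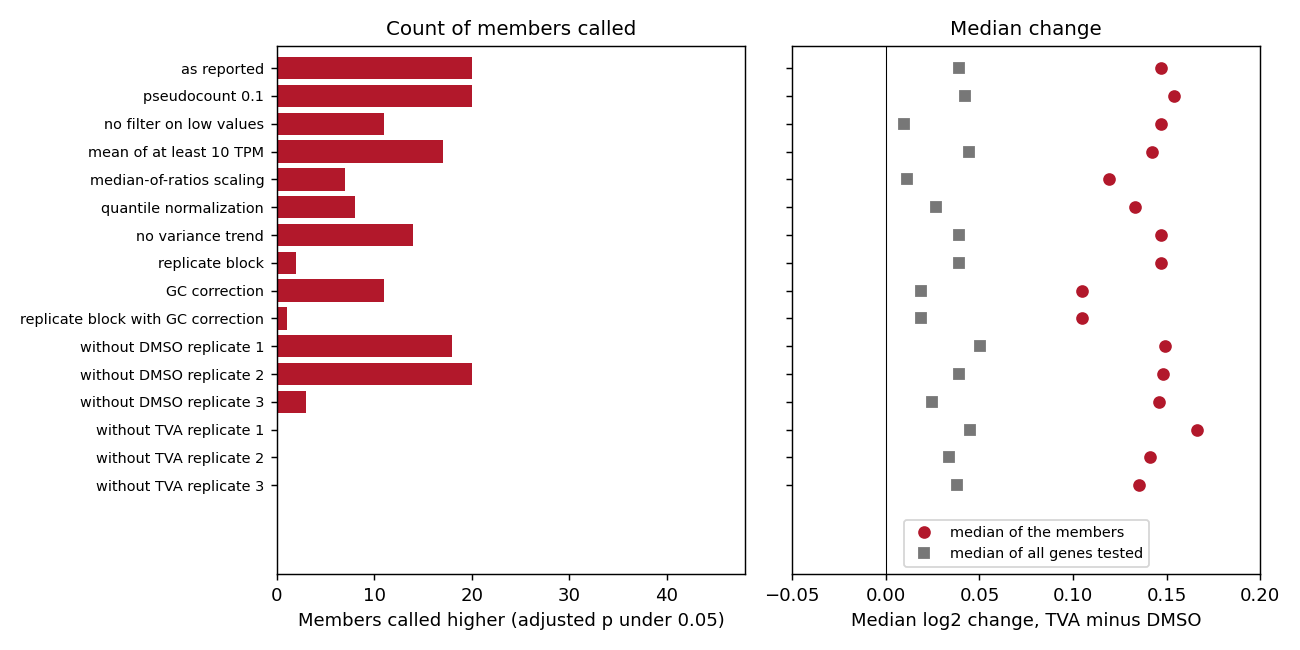
Bars give the number of the 48 members called higher (limma adjusted p under 0.05) under each way of processing the values, and the right panel gives the median log2 change of the members (circles) and of all genes tested (squares). The count runs from 20 down to 0, while the circles stay to the right of the squares, between 0.105 and 0.166.

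A further 102 genes outside the members, called the other mitotic genes here, were all tested. Among them are 12 DREAM, B-MYB and FOXM1 regulators. Of the 102 genes 13 rose and 1 fell, with a median log2 change of 0.12. The share called higher was 12.7%, beside 5.28% of all genes tested called higher and 3.23% called lower. Kif18a, a kinesin that dampens chromosome movement, had 9.99, 9.64 and 9.89 TPM in DMSO and 12.13, 11.95 and 12.50 TPM in TVA, a log2 change of 0.28 (SE 0.0453, adjusted p = 0.0162, limma). The next largest were Sgo2a (listed as Sgol2a), a protector of centromeric cohesin (log2 change 0.28), Spag5, the spindle protein astrin (0.27), and Depdc1a (0.27). Cenpw, a histone-fold protein of the inner kinetochore, fell, from 25.48, 19.94 and 21.20 TPM in DMSO to 16.63, 16.01 and 16.50 TPM in TVA, a log2 change of -0.41 (SE 0.0835, adjusted p = 0.0308, limma). Every TVA library of Cenpw was below every DMSO library. Without DMSO library 2 the counts were 25 higher and 2 lower, without DMSO library 3 they were 4 and 0, and without TVA library 1, 2 or 3 no gene of this list was called by limma (48, 34 and 30 higher and 1, 2 and 1 lower at an unadjusted p under 0.05). The share of all genes called higher moved the same way, to 11.3% without DMSO library 2 and 1.32% without DMSO library 3. The regulators Foxm1 and Mybl2 were not called, with log2 changes of 0.11 and -0.03. Of the 12 regulators listed, only Rbl1 was called, higher, with a log2 change of 0.27 (adjusted p = 0.0194, limma). Rbl2 was lower in every TVA library (log2 change -0.11) and was not called. Of 45 DNA replication genes 8 rose (17.8%), with a median of 0.08. Of 30 cyclin and CDK genes 2 rose (6.67%), near the 5.28% of all genes tested, with a median of 0.06. Differences between these lists were not tested.

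The label of the cells was checked against marker genes. All 7 genes of the CD8 T cell list (Cd3d, Cd3e, Cd3g, Cd8a, Cd8b1, Cd2 and Lck) were detected in every library. Their summed TPM ran from 1996 to 2156 in DMSO and from 2250 to 2279 in TVA. Only Cd8a and Cd8b1 encode CD8, with log2 changes of 0.15 and -0.03, and the rest are shared with other T cells. Of the 7, 5 had a positive log2 change and only Cd3g was called, higher (adjusted p = 0.00627, limma). Summed TPM of 3 CD4 T cell markers was 9.28 to 10.14 in DMSO and 7.55 to 8.31 in TVA, of 5 B cell markers 11.26 to 14.88 and 10.65 to 11.02, of 3 NK cell markers 0.72 to 1.08 and 0.23 to 0.69, and of 4 red cell genes 37.5 to 61.07 and 48.44 to 58.37. In these lists only Cd40lg of the CD4 T cell markers (adjusted p = 0.0301, limma) and Hbb-bt of the red cell genes (adjusted p = 0.0121, limma) were called, both lower. The 7 myeloid markers summed to 45.32 to 47.72 TPM in DMSO and 59.96 to 64.81 TPM in TVA, with 2 of 6 tested called higher and none at 0. Their part in the results above was not tested.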

How the data were processed

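RNA-seq libraries of activated mouse CD8+ T cells (3 DMSO, 3 TVA) were analysed from the summary table of TPM that the authors deposited, 1 value per gene and library. Per the submitters' processing notes, STAR, RSEM and mm10 were used; versions, annotation and strand setting are not given in the sources used here. TPM is scaled to gene length and to a fixed total, so read depth is unknown and no count test was run. Groups followed the sample titles.

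Genes with at least 1 TPM in at least 3 libraries (10866 of 24589) were tested on log2(TPM + 1) with limma 3.58.1 (variance trend, unpaired, two-sided) in R 4.3.3, with Benjamini-Hochberg adjustment over all of them and a threshold of 0.05. The pseudocount of 1 understates changes of low genes. The procedure was tested on simulated data with planted changes larger than that of any member and no effects shared within a library. That test therefore does not cover changes of the size reported or the loss of calls when a library is left out. GC content was the median over GENCODE vM21 transcripts (97.4% of genes tested), and the correction was a loess curve (span 0.5) per library. Positions and promoters came from RefSeq, build GRCm38.p6, and overlaps from GENCODE vM21.

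Full values are given for members with an adjusted p under 0.05, the 5 with the largest change, the member with the highest level and Mki67. Library values are also given for Ube2c and Cdc20, whose log2 changes were the lowest of the members. The other mitotic genes named are the called ones with the 5 largest changes, with Foxm1, Mybl2, Rbl1 and Rbl2. Members and lists were chosen with earlier results of these data known. Same-numbered libraries of the 2 groups had correlations of their deviations of 0.1573, 0.0348 and -0.0767, so the numbers were not taken as pairs. Alternatives were another pseudocount (0.1), other filters (none, or a mean of at least 10 TPM), 2 other scalings, no variance trend, a replicate block, the GC correction, both together, and each library left out.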

Additional observations from a re-analysis of the deposited data

How the results depend on the processing

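Of the members, 20 were called higher with the values as reported. The count was 11 without the filter on low values, 7 with median-of-ratios scaling, 8 with quantile normalization, 11 with the GC correction, 2 with the replicate block (Mad2l1 and Top2a) and 1 with the replicate block and GC correction together (Mad2l1), and it ran from 0 to 20 with 1 library left out. The share of all genes called higher was 1.61% without that filter and 0.856% with the block. With block and GC correction together it was 2.06%, so the 1 member called there was near that share. Members called lower ran from 0 to 2 with 1 library left out. Their median log2 change was 0.119 with median-of-ratios scaling and 0.105 with the GC correction, with or without the block. Other mitotic genes called higher numbered 13, against 6 without the filter, 5 and 5 under the 2 scalings, 0 with the replicate block (55 at an unadjusted p under 0.05, limma), 3 with block and GC correction, and 0 to 25 with 1 library left out. Those called lower numbered 1, against 0 without the filter, 0 with the block, 2 with the GC correction, and 0 to 2 with 1 library left out. None of the 20 members kept its call under every alternative.

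Genes near 0 changed sign. Plk1 gave -0.0193 with median-of-ratios scaling and -0.0119 with quantile normalization. With the GC correction, alone or with the block, Spc24 gave 0.0199, Aspm -0.0339 and Mybl2 0.0115. With 1 library left out, the log2 change ran for Bub3 from -0.0203 to 0.0045, for Plk1 from -0.0052 to 0.0376, for Cdc25b from -0.0595 to 0.0305, for Cdca8 from -0.0579 to 0.0046, for Spc24 from -0.119 to 0.0238 and for Mybl2 from -0.0841 to 0.0384. Other members that were not called moved without a change of sign. With 1 library left out, Nuf2 ran from 0.0486 to 0.153 and Ncapd2 from 0.0376 to 0.1495. Incenp was called without DMSO library 1 (log2 change 0.1484, adjusted p = 0.0468, limma). The causes were not tested. Read depth is unknown, and its limit on these values cannot be given.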
